A study of Mus musculus with 12 samples.

Results

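Resting BV-2 microglia kept with luteolin were compared with untreated BV-2 microglia, on 6 of the 12 arrays of the series. The arrays were chosen by their labels alone: 3 are labelled control and 3 luteolin, and each condition holds replicate numbers 1 to 3. The BV-2 line was immortalized from mouse microglia, the resident phagocytes of the brain, and every array comes from 1 cell line in culture. Control cells received no agent, and luteolin-treated cells were exposed to 50 µM luteolin for 24 h. The other 6 arrays, used for the shared estimate of spread and for a comparison at the end, hold cells given 50 ng/ml lipopolysaccharide (LPS), a bacterial cell wall component that activates microglia, alone or together with 50 µM luteolin, also for 24 h. Luteolin was dissolved in DMSO according to the study's methods, and whether the control cells received the same DMSO is not given in the sources used here. The extraction protocol in the labels names PUER cells, whereas the other labels and the methods name BV-2. The methods describe independent stimulation experiments, and the replicate number was taken as the number of the experiment.

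Luteolin is a flavonoid of many plants, studied for its anti-oxidant and anti-inflammatory effects. Cells answer oxidants and many plant compounds through NRF2, a transcription factor that the adaptor KEAP1 holds in check and that binds anti-oxidant response elements before genes of glutathione synthesis, heme breakdown and detoxification. Shortage of amino acids, misfolded proteins and other stresses act through another route, the integrated stress response, in which the factors ATF4 and CHOP drive genes of amino acid supply, tRNA charging and, when stress persists, cell death. Resting microglia are known to scan their surroundings and to carry receptors for lipids, microbial sugars and complement.

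The arrays carried the signal of macrophage-like cells. Signals are RMA intensities on the linear scale, where the median probe set of an array lay between 52.2 and 56.4. Cd68, a lysosomal membrane protein of macrophages, had signals of 14080 to 17630 in control and 14290 to 18780 in luteolin. All 12 general myeloid markers were measured, none passed the test, and their summed signal was 81180 to 84440 in control and 79580 to 93180 in luteolin. Some genes that define microglia in the brain lay under a signal of 50, namely Sall1 with 25.9 to 31.5, Fcrls with 39.5 to 49.5 and Siglech with 39.2 to 47.7 over the 6 arrays. Of 20 homeostatic microglia genes with a probe set, 17 had a mean of at least 50 in either group. Among those were Trem2 with 3037 to 4644, P2ry13 with 52.6 to 128 and Tmem119 with 39.4 to 120 over the 6 arrays. P2ry12, with 22.8 to 112, and Cx3cr1, with 36.0 to 58.0, had arrays under a signal of 50. Markers of other cell types lay mostly under a signal of 50, with a mean of at least 50 in either group for 2 of 8 neuron markers, 2 of 7 astrocyte markers, 4 of 7 oligodendrocyte markers and 0 of 8 fibroblast markers. Rbfox3, a neuron marker, had 187 to 234 and Sox10, an oligodendrocyte marker, 118 to 143 over the 6 arrays. A mean of 50 lies near the signal of the median probe set. Of 7 lymphocyte and endothelial markers, 3 reached that mean: Cldn5 with 49.4 to 58.7, Cd3e with 77.4 to 101 and Kdr, a receptor of endothelial cells, with 826 to 1178 in control and 1005 to 2321 in luteolin.

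In resting microglia treated with luteolin, the transcripts that rose included those of the glutathione transferases Mgst1 and Mgst2, catalase (Cat), the lectin receptor Clec4d, the metal transporter Slc11a1 and the ubiquitin ligase Rnf145. Those that fell included the splicing factor Rbmx, the small nucleolar RNA host gene Snhg1, the ribosome assembly genes Noc2l and Wdr43 and the signalling genes Agap1, Diaph2 and Prkca. Of 12071 genes tested, 34 passed an adjusted p of 0.05 (0.282%), of which 10 were higher (0.0828%) and 24 lower (0.199%) in luteolin-treated cells. With each array centred on its median the split was 23 higher and 26 lower. The differences were moderate. Their log2 fold changes had sizes of 0.54 to 1.70 with a median of 0.85, and the adjusted p-values, from 0.0154 to 0.0490, lay close to the threshold. Another 22 genes had an adjusted p between 0.05 and 0.06, and 1819 genes (15.1%) had an unadjusted p under 0.05. In 66 genes (0.547%) the difference exceeded 1 on the log2 scale in either direction, and 12 of them were called. In each of the 34 genes the difference had the same sign in the 3 replicate numbers, against 47.5% of all genes tested, and in 29 of them no luteolin array overlapped a control array, against 19.6%. These counts use the contrast that called the genes and are given as a description. Without the replicate number in the model no gene passed (lowest adjusted p = 0.0790, limma). Without any 1 of the 6 control and luteolin arrays at most 1 gene passed. The fold changes of the 34 genes then stayed at 83.7% to 114% of their size, and their selection on the same arrays favours such a narrow range.

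**Figure D1:**
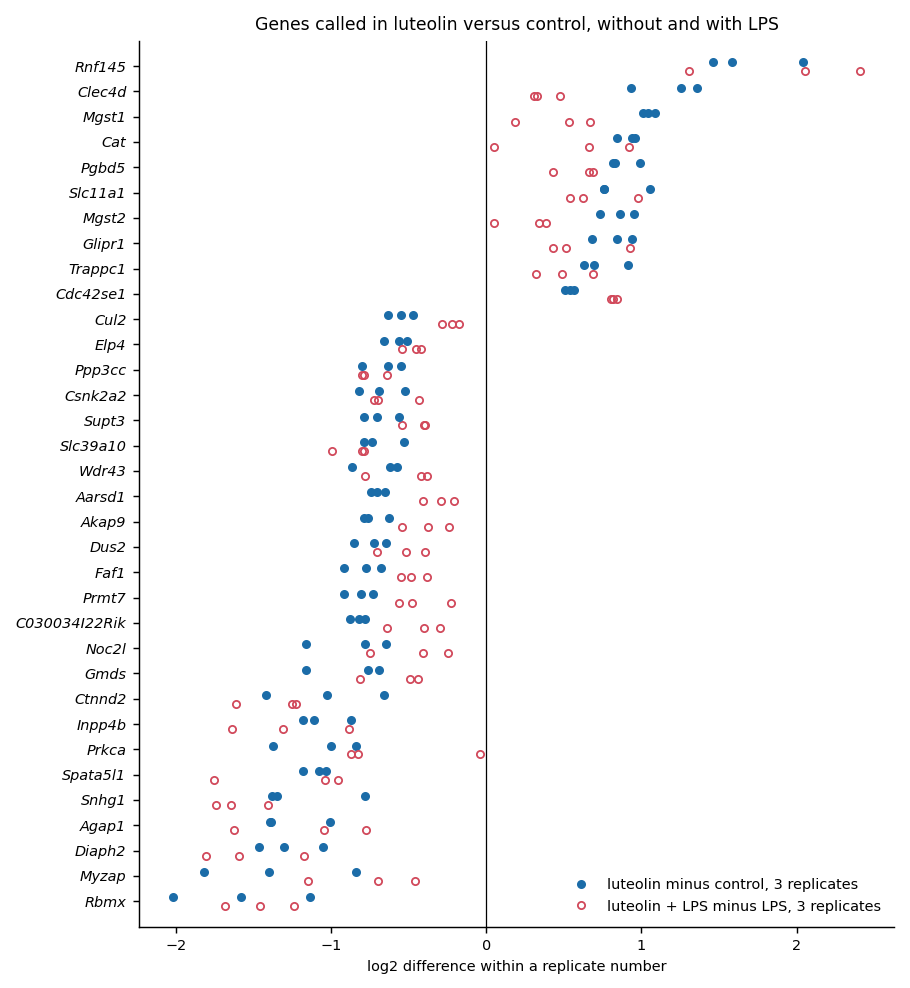
The plot shows the 34 called genes, with the log2 difference within each replicate number on the horizontal axis. Filled points are luteolin minus control and open points are luteolin + LPS minus LPS. All filled points of a gene lie on 1 side of 0, and the fitted sizes run from 0.54 to 1.70.

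The microsomal glutathione transferase Mgst1, which conjugates reactive lipids in the endoplasmic reticulum and mitochondria, had signals of 4558, 3823 and 3615 in the control arrays and 9393, 7712 and 7694 in the luteolin arrays. Every luteolin array lay above every control array, and the 3 paired differences were nearly equal (log2 fold change 1.05, SE 0.11, adjusted p = 0.0154). Mgst2, a relative that also joins glutathione to leukotriene precursors, had 624, 1243 and 834 in control and 1207, 2068 and 1512 in luteolin. Here the groups overlapped, because replicate 2 was high in both conditions, but each luteolin array exceeded the control array of its number (log2 fold change 0.85, SE 0.12, adjusted p = 0.0379). Cat, the catalase that breaks down hydrogen peroxide, had 2125, 1637 and 1254 in control against 3814, 3135 and 2432 in luteolin (log2 fold change 0.91, SE 0.15, adjusted p = 0.0490). The arrays measure the RNA of a whole culture, so more cells that express a gene and more RNA per cell cannot be told apart.

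Mgst1 and Cat belong to a list of NRF2 and anti-oxidant genes, of which 34 were measured and tested. Those 2 members passed the test, both higher, against 0.0828% of all genes called higher. Of the 34, 33 had a log2 fold change above 0, with a median of 0.39 against -0.01 over all genes tested, and 20 had no overlap between the arrays, all higher, against 8.29% of all genes. The medians were 0.30, 0.49 and 0.37 in replicates 1 to 3. Gss, glutathione synthetase, was the 1 member below 0 (2.94% of the list, against 52.9% of all genes), at -0.11.

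The largest differences of the list did not pass the adjusted threshold. Gsta3, a glutathione transferase of detoxification, had 39.4, 19.3 and 22.5 in control and 229, 51.3 and 43.1 in luteolin (log2 fold change 1.63, SE 0.28, adjusted p = 0.0546). All control arrays and 1 luteolin array lay under a signal of 50, so this value rests on dim probes. Srxn1, sulfiredoxin, which restores over-oxidized peroxiredoxins, had 451, 525 and 540.0 in control and 1552, 1162 and 1076 in luteolin (log2 fold change 1.31, SE 0.27, adjusted p = 0.0867). Hmox1, the inducible heme oxygenase, had 567, 2305 and 2005 in control and 2623, 3797 and 3157 in luteolin. Its luteolin arrays all lay above its control arrays, but the differences within replicates, 2.21, 0.72 and 0.66, were uneven (log2 fold change 1.20, SE 0.29, adjusted p = 0.118).

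The neighbours of heme oxygenase in heme breakdown, and genes of glutathione synthesis, did not pass either. Slc48a1, a heme transporter of lysosomes, had a log2 fold change of 0.94 (SE 0.17, adjusted p = 0.0644), and Blvrb, a biliverdin reductase, one of 1.23 (SE 0.21, adjusted p = 0.0535). Among genes of glutathione synthesis, Slc7a11, the cystine importer, was at 1.29 (SE 0.44, adjusted p = 0.211). Gclm, the modifier subunit of glutamate-cysteine ligase, was at 0.93 (SE 0.28, adjusted p = 0.168). Nqo1, a quinone reductase, had a log2 fold change of 0.97 (SE 0.19, adjusted p = 0.0784). None of these 5 passed, and in each of them the 3 luteolin arrays lay above the 3 control arrays. They are among the larger differences of the list. Gclc, the catalytic subunit of the ligase, was at 0.37 without overlap. Gss at -0.11 and Blvra, another biliverdin reductase, at 0.06 had overlapping arrays. The transcripts of NRF2 itself (Nfe2l2) and of Keap1 had log2 fold changes of 0.22 and 0.04, with overlapping arrays.

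**Figure D2:**
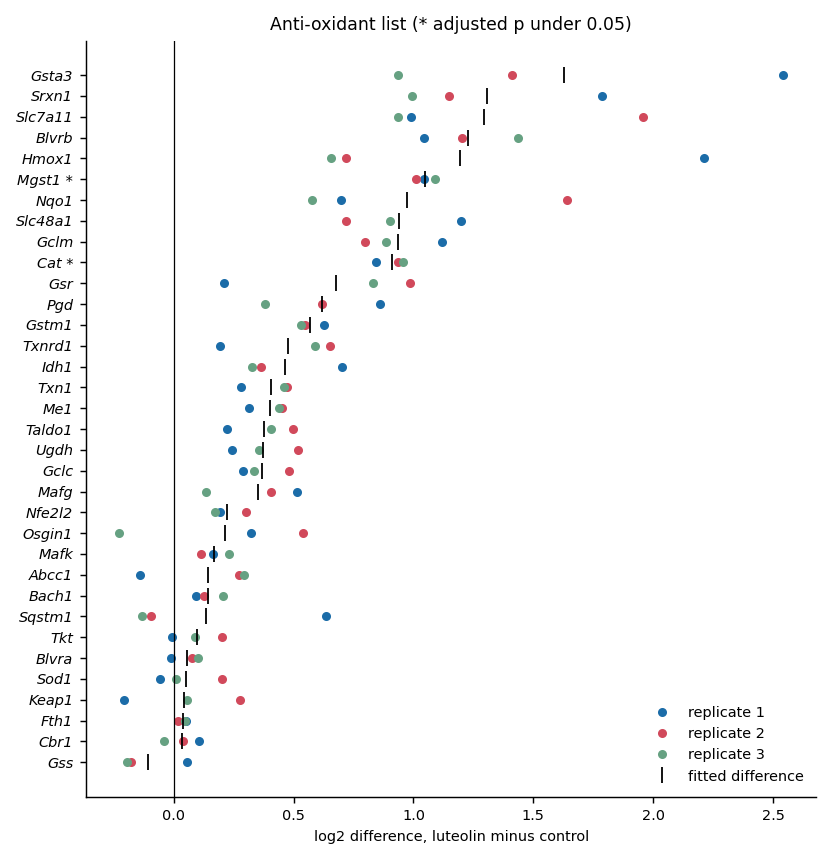
The plot shows the 34 tested genes of the anti-oxidant list, with the log2 difference of luteolin minus control in each replicate as points and the fitted difference as a bar. 33 fitted differences lie above 0, and the asterisks mark Mgst1 and Cat.

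Promoter windows of 280 bases, from 250 before to 30 after a gene's start, were searched on both strands for the core of the anti-oxidant response element, spelled TGACNNNGC. Sequences are from RefSeq, build GRCm38.p6. A window was at hand for 9788 of the genes tested and for 29 of the 34 list members, and 12 of the 29 (41.4%) held a match, against 15.7% of all genes tested with a window. The share was 10 of 26 (38.5%) in the integrated stress response list, 3 of 12 (25%) in the aminoacyl-tRNA synthetases and 1 of 30 (3.33%) in ribosome biogenesis. Among the called genes, 2 of 8 higher ones (Mgst1 and Cdc42se1) and 3 of 22 lower ones had a match. Srxn1, Blvrb, Nqo1, Slc7a11 and the called Cat held no match in their windows. The 3 windows below are those of the list members with a match and the largest differences, with the match in capitals. They lie at chr1:21240335-21240614 (plus strand, Gsta3), chr6:138140277-138140556 (plus strand, Mgst1) and chr3:122245307-122245586 (plus strand, Gclm), and in Mgst1 and Gclm the match reads on the opposite strand. A match describes the letters only, and binding was not measured.
Gsta3: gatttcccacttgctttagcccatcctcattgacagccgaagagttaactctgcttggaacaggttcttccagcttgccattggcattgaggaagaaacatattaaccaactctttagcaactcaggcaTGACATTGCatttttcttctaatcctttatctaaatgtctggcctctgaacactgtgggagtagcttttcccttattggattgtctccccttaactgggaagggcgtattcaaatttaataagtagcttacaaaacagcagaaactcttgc
Mgst1: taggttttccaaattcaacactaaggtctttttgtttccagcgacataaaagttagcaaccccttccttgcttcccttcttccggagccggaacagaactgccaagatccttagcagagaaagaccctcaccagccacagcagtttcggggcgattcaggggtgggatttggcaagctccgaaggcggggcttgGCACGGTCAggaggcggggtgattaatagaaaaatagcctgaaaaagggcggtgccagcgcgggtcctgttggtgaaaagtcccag
Gclm: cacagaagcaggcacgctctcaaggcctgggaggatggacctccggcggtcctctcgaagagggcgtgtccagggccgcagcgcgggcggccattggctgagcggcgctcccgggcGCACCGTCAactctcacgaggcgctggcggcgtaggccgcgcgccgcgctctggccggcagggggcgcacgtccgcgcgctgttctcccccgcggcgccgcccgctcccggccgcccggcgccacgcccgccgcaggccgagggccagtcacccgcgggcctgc

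Clec4d and Slc11a1, both known from myeloid cells, also rose. Clec4d, a C-type lectin receptor for mycobacterial glycolipids, had 881, 1493 and 858 in control and 2100, 2853 and 2200 in luteolin (log2 fold change 1.18, SE 0.11, adjusted p = 0.0154). No arrays overlapped. Slc11a1, the metal transporter of phagosomes known as NRAMP, had 2715, 2025 and 1825 in control and 4599, 3432 and 3784 in luteolin (log2 fold change 0.86, SE 0.11, adjusted p = 0.0360). It was the 1 called member of a list of 14 iron and metallothionein genes, against 0.0828% of all genes called higher. The list had 9 members above 0 and a median of 0.16, with 35.7% below 0, against 52.9% of all genes. Tfrc, the transferrin receptor, at 0.86 and Slc40a1, the iron exporter ferroportin, at 0.81 were as large but did not pass (adjusted p = 0.220 and 0.135).

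Rnf145 had the largest log2 fold change of all called genes. It encodes an E3 ubiquitin ligase of the endoplasmic reticulum that responds to sterols through the liver X receptor (LXR). Its signals were 464, 827 and 825 in control and 1912, 2486 and 2275 in luteolin (log2 fold change 1.70, SE 0.24, adjusted p = 0.0360, 3.24-fold). No arrays overlapped. Rnf145 was the 1 called member among 16 LXR targets and phospholipid acyltransferases, against 0.0828% of all genes called higher. Of the 16, 14 had a log2 fold change above 0, with a median of 0.25, and 12.5% lay below 0, against 52.9% of all genes. In 6 of the 16 there was no overlap, all higher (37.5%, against 8.29% of all genes). Of its other members, the acyltransferases Lpcat1 at 1.02 (adjusted p = 0.141) and Mboat1 at 0.90 (adjusted p = 0.0750) did not pass. A pair of classical LXR targets were near 0, Abcg1, a sterol exporter, at -0.00 and Apoe, apolipoprotein E, at 0.05, and Abca1, another sterol exporter, stood at 0.63 with overlapping arrays. Mylip, another LXR target, was at 0.60 without overlap and did not pass (adjusted p = 0.281).

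The other 4 genes that rose do not share a role. Glipr1, a secreted protein of the CAP superfamily, had a log2 fold change of 0.82 (SE 0.13, adjusted p = 0.0490), Trappc1, a subunit of a vesicle tethering complex, one of 0.75 (SE 0.12, adjusted p = 0.0490), Pgbd5, a gene derived from a transposase, one of 0.88 (SE 0.09, adjusted p = 0.0154), and Cdc42se1, a small binding partner of the GTPase CDC42, one of 0.54 (SE 0.08, adjusted p = 0.0490). In these 4 genes no luteolin array overlapped a control array. A dimmer probe set of Glipr1 pointed the other way, with 162 in control and 138 in luteolin.

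Differences of other genes, some of them encoding surface proteins, were as large in size but did not pass. Cd36, a scavenger receptor for oxidized lipids, had 457, 212 and 219 in control and 1287, 413 and 650 in luteolin (log2 fold change 1.34, adjusted p = 0.0940). Cd93, a receptor linked to phagocytosis and cell adhesion, had 557, 745 and 361 in control and 180, 284 and 180 in luteolin (log2 fold change -1.34, adjusted p = 0.274). Over all 26 tested scavenger and phagocytic receptors, 13 lay above 0 and 13 below, and none passed. Tgm2, a transglutaminase, had a log2 fold change of 1.32 (adjusted p = 0.150), and Nrcam, a cell adhesion molecule best known from neurons, one of -1.48 (adjusted p = 0.224). The uncharacterized BC049762 stood at 1.25 (adjusted p = 0.0535) and Efhd1, a calcium-binding protein of mitochondria, at 1.24 (adjusted p = 0.155), both with control arrays under a signal of 50. Cd14, the co-receptor for LPS, had 1356, 1387 and 1080 in control and 3906, 2971 and 2307 in luteolin (log2 fold change 1.24, adjusted p = 0.0586).

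**Figure D3:**
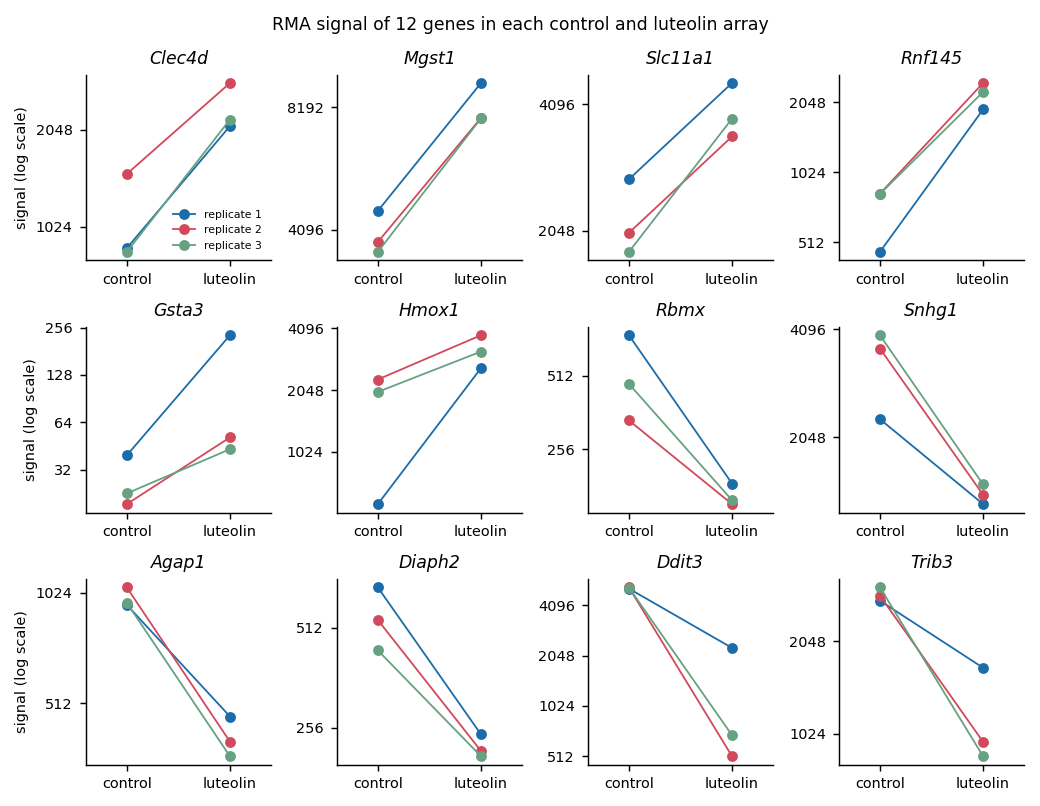
The plot shows the RMA signal of 12 genes on a log axis, with control on the left and luteolin on the right of each panel and a line joining arrays of 1 replicate number. Mgst1, Clec4d, Slc11a1 and Rnf145 rise in the 3 replicates, whereas Hmox1, Gsta3, Ddit3 and Trib3 differ in how far replicate 1 moved from the other replicates.

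Rbmx fell, while the splicing list as a whole held no other call. Rbmx, an RNA-binding protein of the spliceosome, had 751, 336 and 475 in control and 185, 153 and 158 in luteolin (log2 fold change -1.58, SE 0.17, adjusted p = 0.0154, 2.99-fold lower). The highest luteolin array lay well below the lowest control array. Its other 3 probe sets were under 50 in both groups and gave no second reading. Rbmx was the 1 called member of 39 splicing factors and kinases, against 0.199% of all genes called lower. Of the 39, 27 lay below 0 (69.2%, against 52.9% of all genes), with a median of -0.11. The splicing kinases Srpk1 at -0.67 (adjusted p = 0.0703) and Clk2 at -0.49 (adjusted p = 0.0954) had no overlap between the arrays and did not pass.

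Snhg1 is a host gene whose introns release small nucleolar RNAs, the guides of ribosomal RNA modification. Its signals were 2303, 3621 and 3945 in control and 1336, 1418 and 1515 in luteolin (log2 fold change -1.17, SE 0.14, adjusted p = 0.0246), and 2 further bright probe sets had log2 differences of -1.23 and -0.98. Another 2 probe sets, with control signals of 151 and 131, had -0.03 and -0.38. All 9 tested host genes of small nucleolar RNAs lay below 0, against 52.9% of all genes, with a median of -0.44. Snhg1 alone passed, against 0.199% of all genes called lower. The median was -0.10 in replicate 1 and -0.74 and -0.67 in replicates 2 and 3. Snhg12 had 783, 2485 and 2018 in control and 615, 372 and 400.1 in luteolin, a log2 fold change of -1.81 that did not pass (adjusted p = 0.106), and Snhg5 one of -0.97 (adjusted p = 0.105).

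Of 35 tested genes of ribosome biogenesis, 2 were called lower, against 0.199% of all genes. All 35 tested had a log2 fold change below 0, against 52.9% of all genes, with a median of -0.27 and 16 without overlap, all lower, against 11.3% of all genes. The medians of replicates 1 to 3 were -0.38, -0.20 and -0.32. Noc2l, a nucleolar protein, fell from 1321, 806 and 873 in control to 589, 513 and 507 in luteolin (log2 fold change -0.87, SE 0.13, adjusted p = 0.0490). Another probe set of Noc2l had 174 in control and 181 in luteolin. Wdr43, a component of the small subunit processome, fell from 1595, 1902 and 1885 to 876, 1276 and 1224 (log2 fold change -0.69, SE 0.11, adjusted p = 0.0490), and no arrays overlapped in either gene. Heatr1 at -0.63 and Nolc1 at -0.53, both of early pre-ribosomes, did not pass (adjusted p = 0.0940 and 0.105).

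Genes of tRNA handling were among those that fell. Dus2, which makes dihydrouridine in tRNA, had a log2 fold change of -0.74 (SE 0.11, adjusted p = 0.0433), Elp4, a subunit of the Elongator complex that modifies the wobble base, one of -0.58 (SE 0.09, adjusted p = 0.0490), and Aarsd1, a protein with an alanyl-tRNA editing domain, one of -0.70 (SE 0.10, adjusted p = 0.0360). Of 18 aminoacyl-tRNA synthetases none passed, 17 lay below 0 (94.4%, against 52.9% of all genes), and 12 had no overlap, all lower (66.7%, against 11.3%), with a median of -0.26 (-0.45, -0.22 and -0.30 in replicates 1 to 3). Wars, the tryptophan enzyme, had 1788, 2228 and 2091 in control and 1281, 1082 and 1106 in luteolin (log2 fold change -0.81, adjusted p = 0.0940). Eprs, which charges glutamate and proline, had a log2 fold change of -0.46 (adjusted p = 0.0777). Prmt7, an arginine methyltransferase, at -0.82 (SE 0.13, adjusted p = 0.0490) and Spata5l1, an AAA ATPase, at -1.10 (SE 0.15, adjusted p = 0.0360) also fell, and their arrays did not overlap.

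The integrated stress response list held the largest difference among all genes tested, that of Ddit3, but no called gene. Ddit3, which encodes CHOP, had 5166, 5253 and 5235 in control and 2278, 511 and 682 in luteolin (log2 fold change -2.49, SE 0.61, adjusted p = 0.122). The control arrays were nearly equal, and luteolin replicate 1 stood well above the other luteolin arrays. Trib3, a pseudokinase induced by CHOP, had 2774, 2882 and 3066 in control and 1677, 962 and 863 in luteolin (log2 fold change -1.38, SE 0.37, adjusted p = 0.142). Nupr1, a stress-induced nuclear protein, had 1534, 1199 and 1254 in control and 780, 410 and 419 in luteolin (log2 fold change -1.37, SE 0.33, adjusted p = 0.120). In all 3 genes the groups did not overlap. The list was not uniform. Of 31 tested, 24 lay below 0 (77.4%, against 52.9% of all genes) with a median of -0.16. Without overlap, 7 were lower (22.6%, against 11.3%) and 3 were higher (9.68%, near the 8.29% of all genes), among them Atf3 at 0.35. Atf4, the factor that drives the response, had a log2 fold change of -0.34 with overlapping arrays, Cebpg, its partner in binding, one of -0.76, and Asns, the asparagine synthetase, one of -0.23.

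The same windows were searched for the core of the C/EBP-ATF response element, which ATF4 and CHOP are known to bind, spelled TGATGNAA. It was found in 6 of 26 list members with a window (23.1%), in 5 of 12 aminoacyl-tRNA synthetases (41.7%) and in 2.64% of all genes tested with a window. Ddit3, with the largest difference of the list, held no match. Trib3 and Nupr1 are shown as the members with a match and the largest differences, at chr2:152344031-152344310 (minus strand) and chr7:126625441-126625720 (minus strand). The capitals mark the match, which in both reads on the strand opposite to the gene.
Trib3: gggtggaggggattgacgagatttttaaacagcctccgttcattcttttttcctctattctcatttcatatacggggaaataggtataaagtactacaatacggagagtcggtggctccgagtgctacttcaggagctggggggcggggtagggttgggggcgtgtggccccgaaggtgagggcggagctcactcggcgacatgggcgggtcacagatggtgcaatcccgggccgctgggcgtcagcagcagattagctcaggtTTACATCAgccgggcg
Nupr1: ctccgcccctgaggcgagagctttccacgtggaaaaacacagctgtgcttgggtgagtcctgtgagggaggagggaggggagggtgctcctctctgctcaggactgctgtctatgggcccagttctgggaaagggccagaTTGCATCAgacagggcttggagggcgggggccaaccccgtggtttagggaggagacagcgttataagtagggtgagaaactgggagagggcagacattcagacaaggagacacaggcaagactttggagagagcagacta

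Signalling and scaffold genes with long loci made up much of the rest of the genes that fell. Agap1, an ARF GTPase-activating protein of endosomes, had 949, 1059 and 962 in control and 472, 403 and 368 in luteolin (log2 fold change -1.26, SE 0.16, adjusted p = 0.0360). Diaph2, a formin that extends actin filaments, had 676, 539 and 437 in control and 245, 218 and 210.2 in luteolin (log2 fold change -1.28, SE 0.19, adjusted p = 0.0490). In both genes every luteolin array lay under every control array. Diaph2 was the 1 called member of 33 filopodia and actin genes, against 0.199% of all genes called lower. The list split 16 above and 17 below 0. Prkca, protein kinase C alpha, had 383, 229 and 262 in control and 148, 128 and 131 in luteolin (log2 fold change -1.07, SE 0.17, adjusted p = 0.0490).

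Further genes that fell included dim ones and ones whose arrays overlapped between the groups. Inpp4b, a phosphoinositide phosphatase, had 57.7, 75.1 and 71.3 in control and 31.5, 33.1 and 32.9 in luteolin, so the luteolin arrays lay under the minimum signal (log2 fold change -1.06, SE 0.16, adjusted p = 0.0436). Ctnnd2, delta-catenin of cell junctions, had 909, 427 and 318 in control and 339, 209 and 201 in luteolin (log2 fold change -1.04, SE 0.14, adjusted p = 0.0360). Replicate 1 was higher than replicates 2 and 3 in both conditions, so the groups overlapped, as they did in Faf1, an adaptor of ubiquitin-dependent protein breakdown, and in Supt3, a subunit of the SAGA coactivator. Faf1 fell by 0.79 and Supt3 by 0.69 on the log2 scale. Gmds, the first enzyme of GDP-fucose synthesis, fell by 0.87, Akap9, a scaffold of protein kinase A at the Golgi, by 0.73, and Csnk2a2, a catalytic subunit of casein kinase II, by 0.68 on that scale, without overlap. A second probe set had 136 in control and 147 in luteolin for Akap9, and 209 and 217 for Dus2.

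Slc39a10, a zinc importer, fell by 0.69 (SE 0.10, adjusted p = 0.0379), from 1988, 2652 and 2888 in control to 1190, 1839 and 1669 in luteolin. Myzap, a protein of cell junctions best known from heart muscle, fell by 1.35 (SE 0.18, adjusted p = 0.0360), Ppp3cc, a catalytic subunit of calcineurin, by 0.66 with overlapping arrays (SE 0.11, adjusted p = 0.0490), and Cul2, the scaffold of an E3 ligase, by 0.55 (SE 0.09, adjusted p = 0.0490). The uncharacterized RNA C030034I22Rik, at 105.5, 75.8 and 71.7 in control, had 61.4, 42.8 and 38.9 in luteolin.

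The length of the locus, from first to last base in the RefSeq table of GRCm38.p6, had no part in the call. The 24 called genes that fell had a median length of 79.8 kb and the 10 that rose one of 16.7 kb, against 21.97 kb over 12016 genes with a length. Loci over 100 kb made up 11 of the 24, 0 of the 10, and 11.6% of all. The 41 genes with a log2 fold change below -1, most of them not called, had a median length of 20.9 kb, close to that of all genes, with 15 over 100 kb. Agap1 spans 440 kb (chr1:89454811-89895282), Diaph2 716 kb (chrX:129749668-130465834), Inpp4b 792 kb (chr8:81342266-82134312) and Ctnnd2 857 kb (chr15:30172534-31029344).

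The same classes of length were taken over all genes. The median log2 fold change was 0.04 for the 782 genes under 3 kb, 0.03 for 3 to 10 kb, -0.05 for 30 to 100 kb, -0.11 for 100 to 200 kb, -0.20 for the 324 genes of 200 to 400 kb and -0.15 for the 130 genes over 400 kb. Of the 454 genes over 200 kb, 70.5% lay below 0, against 52.9% of all, and their medians were -0.26, -0.14 and -0.15 in replicates 1 to 3. Among genes whose mean over both groups reached a signal of 200, the median over 200 kb was -0.31 (262 genes), against -0.05 over all lengths. Genes of more than 200 kb that did not pass include Prkg1, a cGMP-dependent kinase, at -1.11 (adjusted p = 0.0535), Hdac9, a histone deacetylase, at -1.06 (adjusted p = 0.164) and Myo1d, an unconventional myosin, at -1.05 (adjusted p = 0.0793). Genes are not independent replicates, so these shares are descriptions of 6 arrays.

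**Figure D4:**
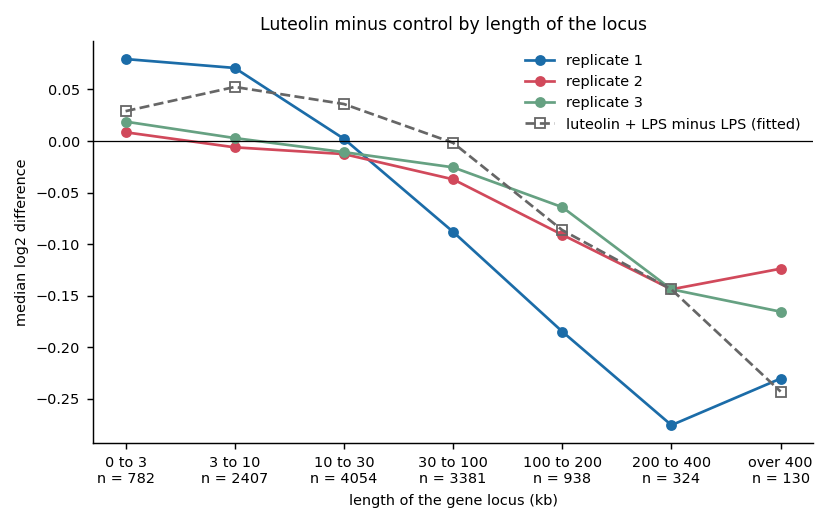
The plot shows the median log2 difference against classes of locus length in kb, with n genes per class, for each replicate of luteolin minus control as a line and for luteolin + LPS minus LPS as a dashed line. The medians fall from near 0 in short loci to between -0.14 and -0.28 at 200 to 400 kb.

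The DNA replication and mitosis lists had no reading that held over the replicates. Of 33 DNA replication genes, 0 passed and 29 lay above 0, with a median of 0.30, but the medians were -0.68 in replicate 1 and 0.80 and 0.64 in replicates 2 and 3. Mitosis genes had medians of -0.82, 0.75 and 0.27. The list lay highest in control replicate 1, at 0.72 above the control mean on the log2 scale, and at -0.49 and -0.21 in control replicates 2 and 3. Rrm2, a subunit of ribonucleotide reductase, had 1671, 810 and 1120 in control and 989, 2358 and 2719 in luteolin. The part of cell cycle state in the other results was not tested.

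Sterol synthesis held no call. Of 22 cholesterol genes, 18 lay below 0 (81.8%, against 52.9% of all genes) with a median of -0.17. In 9 there was no overlap and they were lower (40.9%, against 11.3% of all genes). In luteolin + LPS against LPS the median of the list was 0.15. Srebf2, the factor that drives sterol synthesis, was at -0.50 and Fdft1, squalene synthase, at -0.49, whereas Ebp, a sterol isomerase, was at 0.52. Of 60 respiratory chain subunits none passed, and the median was 0.04, with Cox6a2, a subunit of cytochrome oxidase best known from muscle, at -1.65 (adjusted p = 0.0679) from 2572, 1695 and 1354 in control to 1071, 453 and 397 in luteolin.

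Inflammatory lists showed no common direction in resting cells. None of 45 interferon response genes, 24 NFkB cytokines and chemokines, 23 NFkB feedback genes, 20 Toll-like receptor genes, 18 antigen presentation genes, 19 complement and acute phase genes or 12 M2 macrophage genes passed, and their medians lay between -0.13 and 0.17. Single members lay further out, from -1.20 to 1.32 in the M2 list. Some members entered the test only through the arrays with LPS. A mean of at least 50 in control or luteolin was reached by 36 of the 45 interferon genes, 19 of the 24 cytokines and chemokines and 16 of the 19 complement and acute phase genes. In dimmer members a fall could hardly be seen. The spread was also estimated over all 12 arrays, including those with LPS. Relative to the control mean, the interferon list stood at 2.37, -0.20 and 0.93 (log2) in luteolin + LPS replicates 1 to 3. Such variation widens the standard errors in resting cells too, so the lack of calls in these lists is weak evidence of no difference. Relb, an NFkB subunit, had a log2 fold change of -0.82 (adjusted p = 0.163), and Cst7, a cystatin of activated microglia, one of -1.12 (adjusted p = 0.109). C3ar1, the receptor for the complement fragment C3a, had 681, 958 and 901 in control and 2259, 1565 and 2050 in luteolin (log2 fold change 1.21, adjusted p = 0.0978). Cp, the iron oxidase ceruloplasmin, had 206, 149 and 196 in control and 71.0, 55.7 and 67.3 in luteolin (log2 fold change -1.50, adjusted p = 0.236). Of 18 homeostatic microglia genes none passed and none had arrays without overlap.

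**Figure D5:**
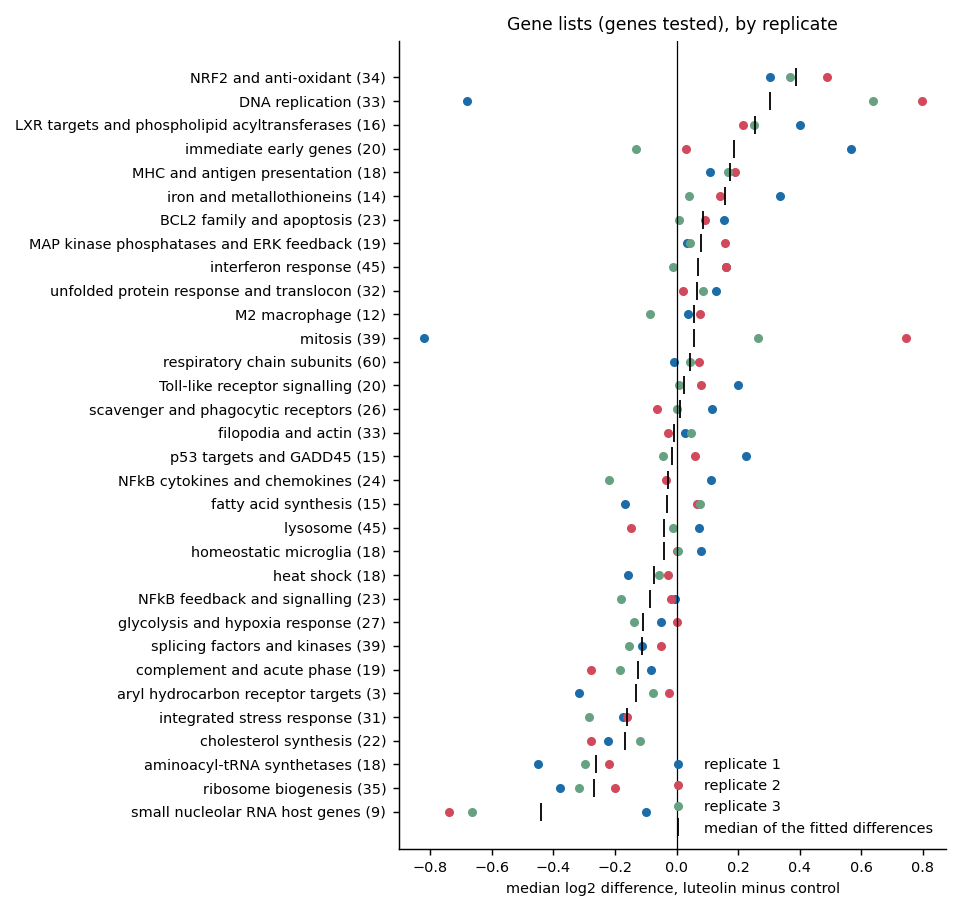
The plot shows, for each gene list with its number of tested genes, the median log2 difference of luteolin minus control in each replicate as points and the median of the fitted differences as a bar. Anti-oxidant genes lie to the right of 0 and ribosome biogenesis genes to the left in the 3 replicates, while DNA replication and mitosis split by replicate.

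The same effect was read in LPS-activated cells, from the other 6 arrays, which share the fit and the replicate term with the resting cells. All 34 genes had the same sign there, and 23 were called in the same direction, 6 higher and 17 lower, against 1.95% and 2.84% of all genes called higher and lower (4.79% in all). The estimate of spread is shared, so a gene of low spread is more readily called in both comparisons. In 25 of the 34 the size was smaller with LPS and in 9 larger. The medians with and without LPS were 0.57 and 0.87 for genes called higher, and -0.58 and -0.82 for genes called lower. The 34 genes were selected by the comparison without LPS, which favours larger sizes there. Their smaller sizes with LPS therefore cannot be read as a weaker effect. Rnf145 had a log2 fold change of 1.92 with LPS (adjusted p = 0.00678), Snhg1 one of -1.60 (adjusted p = 0.00403) and Rbmx one of -1.46 (adjusted p = 0.00633). Clec4d, already at 3160, 4276 and 3474 with LPS alone, had 0.37 (adjusted p = 0.0887), and Mgst1 0.46 (adjusted p = 0.0508). A test of the difference between the effects called 0 of 12071 genes (limma, 798 at an unadjusted p under 0.05, lowest adjusted p = 0.0927), and among the 34 genes the lowest adjusted p was 0.260. In the anti-oxidant list 13 of 34 genes were called higher with LPS, at a median of 0.46, and the median of the ribosome biogenesis list was -0.08 with 1 called lower. The median of the integrated stress response list was 0.05 with LPS and -0.16 without. That of the aminoacyl-tRNA synthetases was -0.07 with LPS and -0.26 without. The interferon list stood at -1.40 with LPS and at 0.07 without.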

How the data were processed

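Affymetrix Mouse Genome 430 2.0 arrays of 12 BV-2 cultures were used, of which the 3 control and 3 luteolin arrays are compared here. The authors background-corrected, normalized and summarized the probes by RMA, and the deposited values are linear intensity values, 1 per probe set and array, so that a shift common to all genes cannot be seen. The log2 was taken here. Of 45101 probe sets, 34958 named 1 gene, 932 several and 9211 none in the annotation used. Each of 18194 genes was represented by its brightest probe set over the 12 arrays, and 12071 genes with a geometric mean of at least 50 in 1 or more conditions were tested. A linear model with 4 group means and the replicate number as a block was fitted to the 12 arrays and moderated with eBayes (limma 3.58.1, R 4.3.3). P-values were adjusted by Benjamini-Hochberg over all genes tested, and an adjusted p under 0.05 was a call. The fit was tested on simulated data. Plots used matplotlib 3.10.9 under Python 3.11.15.

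Arrays of the same number deviated together from their group means in all 18 pairs (r from 0.101 to 0.591, median 0.421). The 36 pairs of different numbers ran from -0.563 to 0.483, with a median of -0.295, so the ranges overlapped. Deviations sum to 0 within a group, so positive values at the same number go with negative ones at different numbers. The medians are therefore not independent of each other. For luteolin replicate 2, r was 0.483 with luteolin + LPS replicate 3 and 0.186 with luteolin + LPS replicate 2. The methods describe independent experiments, and on these grounds the numbers were taken to pair the arrays. The number of arrays limits the precision. The comparison, the 39 gene lists and the rule for named genes were chosen with earlier results of these data known. The rule took all called genes, up to 10 per direction with the largest difference and no overlap, up to 4 per list, genes the study had named and the cell type markers. Nqo1, Gclm, Slc48a1, Eprs, Nolc1, Prkg1, Hdac9, Myo1d and further list members outside the rule were chosen after their values were seen. Alternatives covered the block, the samples fitted, array weights, centring, the signal filter, the choice of probe set and leaving out arrays.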

Additional observations from a re-analysis of the deposited data

Results flagged for a closer look

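Among the probe sets that name several genes or none, and so entered no comparison, 1 was called in luteolin versus control when all probe sets were tested together. It names 2 genes, and its signals were 810.4, 1214 and 899.6 in control and 1714, 2613 and 1739 in luteolin (log2 fold change 1.05, SE 0.11, adjusted p = 0.0315, limma).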

How the results depend on the processing

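The number of called genes depended on how the spread was estimated. None of the 34 called genes changed sign in the fits that left out 1 of the 12 arrays. They were called on these same arrays with the same sign in the 3 replicates, so a change was unlikely from the start. Without the replicate block 0 genes were called, 0 higher and 0 lower, and 0 were shared with LPS. With the number as a random block, 15 were called lower. A fit of the 6 arrays alone with the block called 84, 28 higher and 56 lower, with 21 of the 34 among them. Array weights with the block called 1855, 687 higher and 1168 lower, with 497 shared with LPS and 9 for the difference between the effects. An intensity trend called 17 higher and median centring 23 higher. A signal filter of 100 called 17, 6 higher and 11 lower, with 14 shared. Averaging the probe sets of each gene called 20, 11 of them lower, and all 45101 probe sets 5, 4 higher and 1 lower, with 3 shared. Genes near 0 changed sign: Abcg1 was at 0.057 with median centring and 0.11 with averaged probe sets, and Apoe at -0.019 with array weights. Leaving out arrays moved Abcg1 from -0.12 to 0.17, Apoe from -0.036 to 0.14 and Keap1 from -0.076 to 0.16. Setting signals under 50 to 50 called 2 genes for the difference between the effects.

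Leaving out 1 array or 1 replicate number gave 0 to 169 called, 0 to 58 higher, 0 to 111 lower, 0 to 89 shared with LPS and 0 to 3 for the difference between the effects. Without control replicate 1, 2 or 3, 0, 1 and 0 were called, and without any 1 luteolin replicate 0. Of the LPS arrays, leaving out number 1 gave 169, number 2 gave 1 and number 3 gave 3. Of the luteolin + LPS arrays, number 1 gave 14, number 2 gave 113 and number 3 gave 7. LPS replicate 1 and luteolin + LPS replicate 2 had the lowest array weights, 0.189 and 0.279. The causes were not tested. Over the alternatives the median of the anti-oxidant list lay between 0.35 and 0.45, that of ribosome biogenesis between -0.33 and -0.21, and that of loci over 200 kb between -0.26 and -0.12, while mitosis ran from -0.25 to 0.52. Signals near 50 carry the least precision, and Gsta3 and Inpp4b have arrays there.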
